A study of Mus musculus with 24 samples.

Results

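The 37 genes of the mouse mitochondrial genome were followed across RNA sequencing of the gastrocnemius, the large calf muscle. They were taken by symbol, as all genes whose name starts with mt-, and make up 37 of the 54752 gene IDs in the count tables. Of these, 13 encode proteins, 2 encode rRNA and 22 encode tRNA. The 24 libraries form 8 groups of 3. All mice carried floxed alleles of Numb and NumbL, written Numb(f/f)/NumbL(f/f), so the controls carry them too. In 4 groups, called transgene here, the mice also carried HSA-MCM, a transgene in which the human skeletal actin promoter drives a tamoxifen-dependent Cre recombinase in muscle fibres and not in the other cells of the muscle. Mice of the other 4 groups, called flox here, were without HSA-MCM. Each genotype was given vehicle or tamoxifen in females and in males. The sources used here give no dose, timing or age. For the 3 transgene male libraries titled as vehicle controls the treatment field reads tamoxifen, and they were grouped by title. The titles of the flox males read WT, but the floxed alleles stand in their genotype field. The labels do not say that each library is a separate animal, so a p-value here covers the spread among libraries, which may be technical.

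The mitochondrial genome is a small circle inside each mitochondrion. Both of its strands are transcribed into long precursors, from which the tRNAs are cut out and so release the mRNAs and rRNAs that lie between them. The 13 mRNAs encode core subunits of complex I, III, IV and V of oxidative phosphorylation, the respiratory chain that supplies ATP in muscle; nuclear genes encode the remaining subunits, all of complex II, and the polymerase and factors that copy and transcribe the mitochondrial DNA. In the GENCODE annotation of GRCm38, 28 of the 37 genes lie on the plus strand and 9 on the minus strand, which are mt-Nd6 and 8 tRNA genes.

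The 3 count tables hold transgene females (31219445 to 39142101 counts per library), flox females (36099031 to 43014516) and all males (21516819 to 29982077). Numb was at 16 to 23.8 CPM (counts scaled to a common library total by TMM within a table) and Numbl at 2.64 to 6.62 CPM over all libraries. In the fit averaged over the 4 strata of sex and genotype, Numb was lower with tamoxifen by a log2 fold change of -0.19 ± 0.04 (SE) and Numbl higher by 0.42 ± 0.08, with adjusted p = 0.00762 and 0.00261 in edgeR's quasi-likelihood test. That average takes in the flox mice, which lack the Cre. In transgene males alone the log2 fold change was 8.0e-05 for Numb. These counts take in every exon and every cell of the muscle, so they do not check the deletion in fibres. The 8 muscle fibre markers were all detected in each group. They include Acta1 and Ckm, and summed to 129202 to 218307 CPM per library.

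The sequences that bear on the measurement came first. Of the coding genes, 5 have a nearly full-length copy within 1 stretch of the nuclear genome on the minus strand, annotated as unprocessed pseudogenes, and a read from such a stretch fits both places. The opening of mt-Co2 (chrM:7013-7072), which encodes a core subunit of complex IV, and of its copy Gm28661 (chr1:24615506-24615565, minus strand) show why the 2 cannot be told apart, since the 60 bases are the same.

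mt-Co2: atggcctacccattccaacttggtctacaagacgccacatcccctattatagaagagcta
Gm28661: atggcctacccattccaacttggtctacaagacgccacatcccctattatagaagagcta

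For mt-Nd3 (chrM:9459-9518), a complex I subunit, and Gm28438 (chr1:24613060-24613119, minus strand) the capital marks the only base that differs in 345 aligned bases. It is T3C, with the mitochondrial base first and positions counted from 1 at the first base of mt-Nd3.

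mt-Nd3: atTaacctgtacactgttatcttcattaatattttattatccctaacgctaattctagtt
Gm28438: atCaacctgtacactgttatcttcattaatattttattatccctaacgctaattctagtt

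mt-Atp8 (chrM:7766-7969), the smaller of the complex V subunits encoded here, is shown whole because its last 43 bases, in capitals, are also the first bases of mt-Atp6, and counts there can go to either gene.

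mt-Atp8: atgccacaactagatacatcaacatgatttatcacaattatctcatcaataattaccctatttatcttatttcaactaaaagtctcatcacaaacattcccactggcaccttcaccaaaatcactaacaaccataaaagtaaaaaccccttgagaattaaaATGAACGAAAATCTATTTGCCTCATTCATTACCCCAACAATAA

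The tRNA genes that the results turn on are shown 5′ to 3′ on their own strand, with the anticodon in capitals. mt-Tn (chrM:5089-5159, minus strand) is the tRNA for asparagine, mt-Tc (chrM:5192-5257, minus strand) for cysteine, mt-Tl1 (chrM:2676-2750, plus strand) for leucine and mt-Tp (chrM:15356-15422, minus strand) for proline. All sequences are from the GENCODE M21 transcripts and the GRCm38 genome.

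mt-Tn: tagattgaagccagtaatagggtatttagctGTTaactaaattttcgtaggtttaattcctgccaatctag
mt-Tc: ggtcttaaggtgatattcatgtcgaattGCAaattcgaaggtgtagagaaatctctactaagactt
mt-Tl1: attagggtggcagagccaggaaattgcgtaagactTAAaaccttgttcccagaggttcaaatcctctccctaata
mt-Tp: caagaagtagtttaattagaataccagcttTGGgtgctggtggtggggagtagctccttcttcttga

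The mitochondrial genes took between 4.57% and 11.4% of all gene counts in a library. Coding genes made up most of this, with 6.11% to 7.64% for transgene females, 4.46% to 5.13% for flox females and 6.93% to 10.9% for males. The 2 rRNA genes took 0.0978% to 0.960% and the 22 tRNA genes 0.000839% to 0.0203% over all libraries. The widest 95% Wilson interval of a coding share reached 0.0126 percentage points to either side, which covers counting error only. Tables may differ in library type, so a level in 1 table was not tested against that in another.

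**Figure D1:**
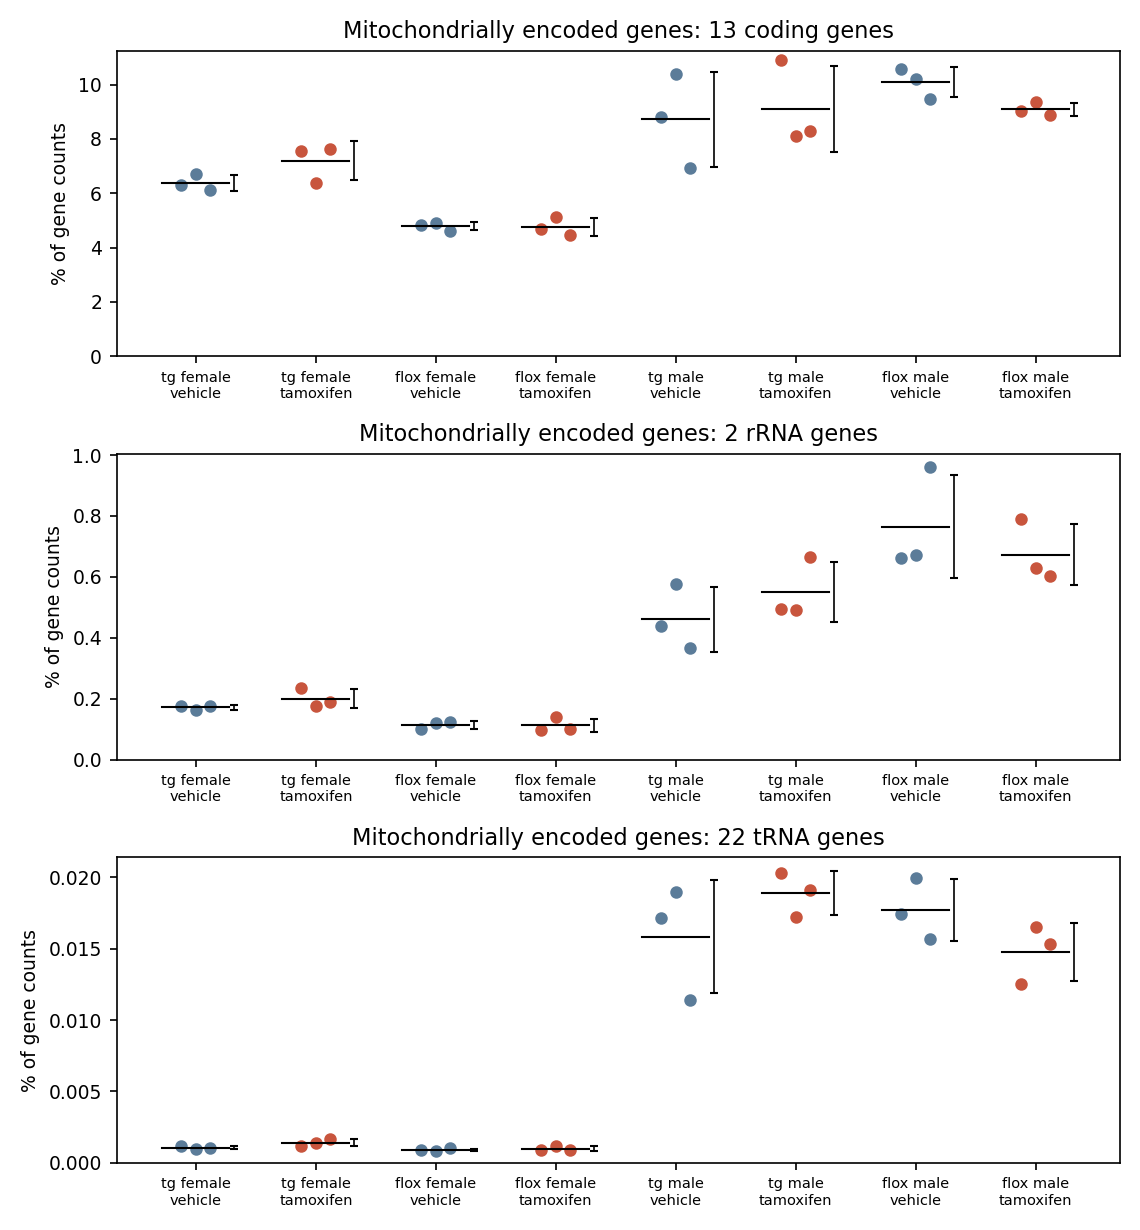
Share of all gene counts (percent, y axis) taken by the mitochondrial coding, rRNA and tRNA genes in each library (points) of the 8 groups; tg is the transgene, lines are group means and bars are 1 SD (n = 3). In flox males the tamoxifen libraries (8.88% to 9.36% coding) sat below the vehicle libraries (9.48% to 10.6%), while tRNA shares were far lower in both female tables than in males.

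Levels per length showed which genes carried these shares. In males mt-Co1, the catalytic subunit of complex IV and partly copied in the nuclear genome, was highest at 22211 ± 2323 CPM per kb (SD, n = 12). It was followed by mt-Nd1 of complex I at 14457 ± 1170 and mt-Cytb of complex III at 13172 ± 1484, which did not differ beyond their spread. mt-Nd2 stood at 8826 ± 1038, and mt-Nd4, mt-Nd5 and mt-Nd6, all of complex I, followed at 5322 ± 570, 5001 ± 653 and 4572 ± 555, again within their spread. The other 6 coding genes lay between 123 CPM per kb for mt-Nd4l and 394 for mt-Co2.

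In transgene females the order at the top differed, with mt-Cytb at 16140 ± 1317 CPM per kb (SD, n = 6), above mt-Nd1 at 10689 ± 985 and mt-Co1 at 10419 ± 1246. In flox females mt-Co1 led at 11142 ± 552, followed by mt-Cytb at 8879 ± 272 and mt-Nd1 at 6569 ± 331. The large rRNA mt-Rnr2 and the small rRNA mt-Rnr1 were at 2785 ± 637 and 1784 ± 616 CPM per kb in males, at 751 ± 76 and 700.0 ± 93 in transgene females and at 454 ± 57 and 435 ± 58 in flox females. The rRNAs thus stood below each of the 6 leading coding genes in every table.

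**Figure D2:**
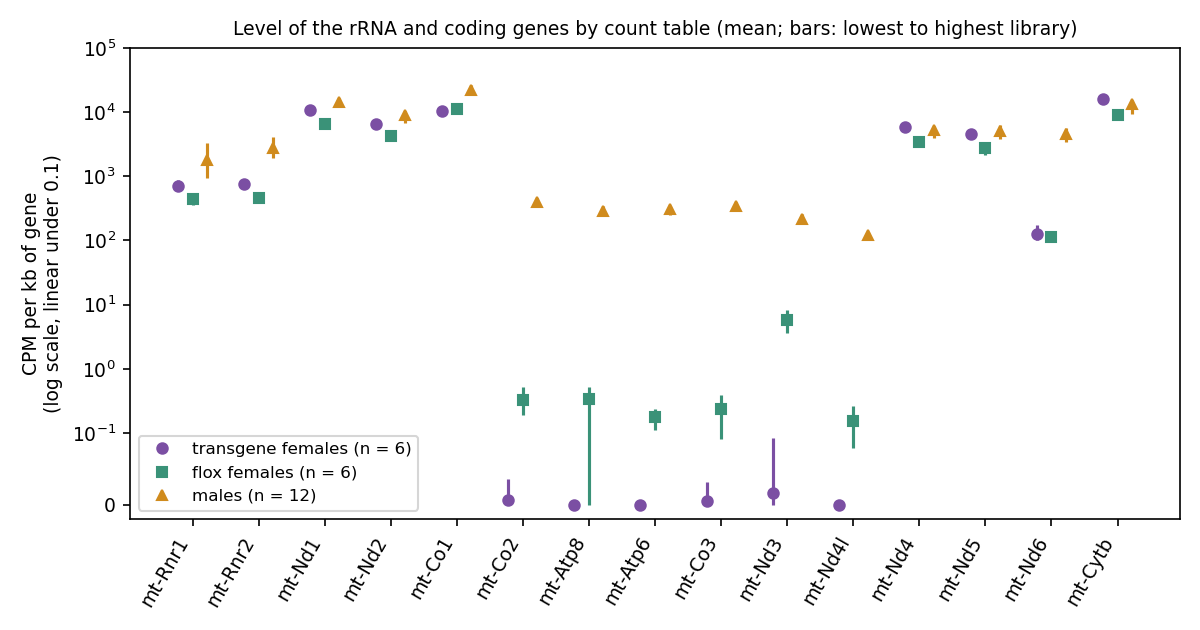
Mean level of the 2 rRNA and 13 coding genes in CPM per kb (y axis, log scale that is linear under 0.1) in the order of the mitochondrial genome, with bars from the lowest to the highest library of each table. From mt-Co2 to mt-Nd4l, 6 neighbouring coding genes were listed at or near 0 in females and at 123 to 394 in males, and mt-Nd6 was at 125 and 113 in the female tables and at 4572 in males.

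The 6 neighbours mt-Co2, mt-Atp8, mt-Atp6, mt-Co3, mt-Nd3 and mt-Nd4l had summed counts of 0 to 2 per transgene female library. The sums per flox female library were 82 to 142, and those per male library 21252 to 29597. The same genes therefore made up at most 6.75e-05% of coding counts in transgene females and 0.808% to 1.18% in males. Complex I, IV and V need these subunits in every cell with mitochondria, so the genes are given here only as listed at or near 0 in females.

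Of the 6 genes, all but mt-Atp8 have an annotated copy between chr1:24611535-24616197. Their identity to it was 99.7% for mt-Nd3 and 100% for mt-Co2, mt-Atp6, mt-Co3 and mt-Nd4l, over at least 98.99% of each gene. The copies themselves, with those of parts of mt-Co1 and mt-Nd4, summed per library to 9 to 23 counts in the table of transgene females, to 78 to 103 in that of flox females and to 19531 to 26713 in that of males. Among males, 0 of the 7 copies passed in any comparison in edgeR. In females the counts appeared neither at the mitochondrial gene nor at its copy. The sources used here do not say how reads that fit several places were counted. mt-Atp8 has no annotated copy above 81.4% identity, and it was listed at 0 in 6 of 6 transgene female libraries and at 0 to 4 counts in flox females. Only annotated transcripts were searched for copies. mt-Atp8 lies between mt-Co2 and mt-Atp6, whose copies stand at chr1:24614885-24615565 and chr1:24613974-24614651. Whether the bases between those copies hold an unannotated copy of mt-Atp8 was not tested. mt-Nd4 is also matched, over its first 876 bases, by Gm28439 at 100% identity, and mt-Co1 by Gm13340 over its whole length at 97.6% identity and by Gm29216 over 483 bases at 99.8%. Exact copies exist for 51.1% of the 50-base windows of mt-Co1 and 62.2% of those of mt-Nd4, so the counts of both are uncertain.

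The tables also differed by strand. mt-Nd6, the only coding gene on the minus strand, had 0.662 to 1.01 counts per 100 counts of its neighbour mt-Nd5 in transgene females and 0.900 to 1.56 in flox females, against 23.4 to 29.3 in males. Of the tRNA counts, the 8 minus strand genes took 89.0% to 93.4% in males, but 7.54% to 17.2% in the transgene and 1.84% to 4.95% in the flox table of females. mt-Tp stood at 97.0 CPM in males, 0.622 in transgene females and 0.144 in flox females. mt-Te, the minus strand tRNA for glutamate, stood at 23.6, 0.0916 and 0.0675. mt-Tl1 on the plus strand, in contrast, was close in the 3 tables at 3.92, 3.20 and 2.87 CPM. The sources used here do not say whether the counting used strand, and mt-Nd6 overlaps mt-Nd5 by 14 bases.

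By mean CPM over all libraries the leading tRNAs were mt-Tp at 48.8, mt-Te at 11.9, mt-Tc at 8.08, mt-Tn at 6.33 and mt-Tl1 at 3.48. mt-Td and mt-Tk, the tRNAs for aspartate and lysine, had 0 counts in all 24 libraries, which allows at most 0.0697 to 0.139 CPM depending on the depth. They lie on either side of mt-Co2, whose copy shares a stretch of chr1 with copies of its neighbours. Neither has an annotated copy, and an unannotated one was not tested, so the limit holds for counted reads only. Whether counts on tRNA genes came from mature tRNAs, which are short and modified, or from uncut precursors was not tested. For the tests below, 15 of the 37 genes passed the filter on low counts in transgene females (7 coding, 2 rRNA, 6 tRNA), 14 in flox females (8, 2 and 4) and 29 in males (13, 2 and 14). The genes that did not pass were not tested.

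Tamoxifen was compared with vehicle first in transgene females, where the Cre can be activated. The coding share was 6.31%, 6.70% and 6.11% after vehicle and 7.57%, 6.36% and 7.64% after tamoxifen. The groups overlapped, and the difference of 0.817 percentage points had p = 0.20 in an exact permutation test, where 3 against 3 cannot go below 0.10. The rRNA share, from lowest to highest, was 0.162%, 0.176% and 0.177% after vehicle and 0.177%, 0.189% and 0.235% after tamoxifen, and the tRNA share was 0.000954%, 0.00103% and 0.00117% against 0.00121%, 0.00135% and 0.00168%. Neither pair of groups overlapped, the rRNA groups by a narrow margin, with differences of 0.0287 and 0.000362 percentage points (exact permutation p = 0.10, adjusted p = 0.42 for each). Without tamoxifen replicate 1 the rRNA difference was 0.0115, and without tamoxifen replicate 3 the tRNA difference was 0.000231. The 14 nuclear RNAs listed as lacking a poly(A) tail summed to 115 to 139.1 CPM after vehicle and 139.3 to 178 after tamoxifen. Of these RNAs, 4 were at 0 after tamoxifen and 7 after vehicle. Only 2 passed the filter on low counts, so the sum says little of the others, and 0 of the 2 passed the test. The 8 slow fibre and 5 red blood cell genes had median log2 fold changes of 0.76 and 0.99 in the same comparison, with 0 passing in edgeR, and their part in these shares was not tested. mt-Co1 was at 14499, 16429 and 14517 CPM after vehicle and at 17901, 14430 and 18804 after tamoxifen, a log2 fold change of 0.17 with a 95% interval of -0.11 to 0.45. mt-Cytb changed by 0.15 (-0.08 to 0.38) and mt-Nd2, the lowest, by -0.08 (-0.34 to 0.18). By edgeR's quasi-likelihood test with Benjamini-Hochberg adjustment over all genes, 0 of the 15 genes tested passed an adjusted p of 0.05, against 1.32% of all genes tested. At an unadjusted p under 0.05 there was 1, mt-Tm, the tRNA for methionine, against 16.8% of all genes tested. Both limma-voom and DESeq2 called 0.

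In flox females, which lack the Cre, the coding share was 4.84%, 4.91% and 4.61% after vehicle and 4.68%, 5.13% and 4.46% after tamoxifen. The groups overlapped, with a difference of -0.0298 percentage points (exact permutation p = 1). The 7 coding genes counted well in both female tables had log2 fold changes between -0.05 for mt-Nd2 and 0.12 for mt-Nd6. None of the 14 genes tested passed (0 of 14 in edgeR and 0 called by limma-voom and DESeq2), against 0.131% of all genes tested. An unadjusted p under 0.05 in edgeR was reached by 0, against 8.65% of all genes tested.

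In transgene males the coding share spread widely within groups, from 6.93% through 8.82% to 10.4% after vehicle and at 10.9%, 8.09% and 8.27% after tamoxifen. The difference of 0.380 percentage points had an exact permutation p of 0.90, and it was -0.512 without vehicle replicate 3, -0.531 without tamoxifen replicate 1 and 1.22 without vehicle replicate 2. mt-Co1 was at 33277, 39160 and 29383 CPM after vehicle and at 40563, 30588 and 29612 after tamoxifen, with a log2 fold change of -0.02 (95% interval -0.34 to 0.31). Vehicle replicate 3 and tamoxifen replicate 1 gave the lowest and the highest coding share of all males. None of the 29 genes tested passed in edgeR (0 by limma-voom and DESeq2), against 0.889% of all genes tested. An unadjusted p under 0.05 in edgeR was reached by 0, against 10.1% of all genes tested.

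In flox males the coding share was 10.6%, 10.2% and 9.48% after vehicle and 9.02%, 9.36% and 8.88% after tamoxifen. These groups did not overlap, and the mean after tamoxifen differed by -1.0 percentage points (exact permutation p = 0.10, the smallest that 3 against 3 allows, adjusted p = 0.42 over the 21 share tests). The 5 macrophage genes all had negative values there (median log2 fold change -0.59, 0 passing in edgeR). Of these, 3 were at an unadjusted p under 0.05, against 17.4% of all genes tested. They summed to 46.9 to 65.8 CPM after vehicle and 33.4 to 40.9 after tamoxifen. Their part in the coding share was not tested. mt-Nd1 was at 15684, 14761 and 14767 CPM after vehicle and at 14223, 13195 and 12911 after tamoxifen, a log2 fold change of -0.16 (95% interval -0.42 to 0.09). mt-Co1, mt-Nd2 and mt-Nd4 had log2 fold changes of -0.13, -0.23 and -0.10. mt-Cytb, mt-Nd5 and mt-Nd6 also had lower mean CPM after tamoxifen, with overlapping libraries. mt-Atp8 and mt-Nd4l had 0.18 and 0.11, so the 13 coding genes did not all share a direction. Both are among the 6 neighbours listed at or near 0 in females, which made up 0.808% to 1.18% of coding counts in males. In edgeR 0 of 29 genes passed, and limma-voom and DESeq2 called 0, against 2.89% of all genes tested. An unadjusted p under 0.05 was reached by 2, against 17.4% of all genes tested. The 2 were mt-Tl1 at -0.48 ± 0.18 (SE) and mt-Tq, the tRNA for glutamine, at -2.29 ± 0.90, with edgeR adjusted p = 0.186 and 0.207. mt-Tq rested on few reads, with 9, 13 and 11 counts after vehicle and 2, 5 and 0 after tamoxifen.

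**Figure D3:**
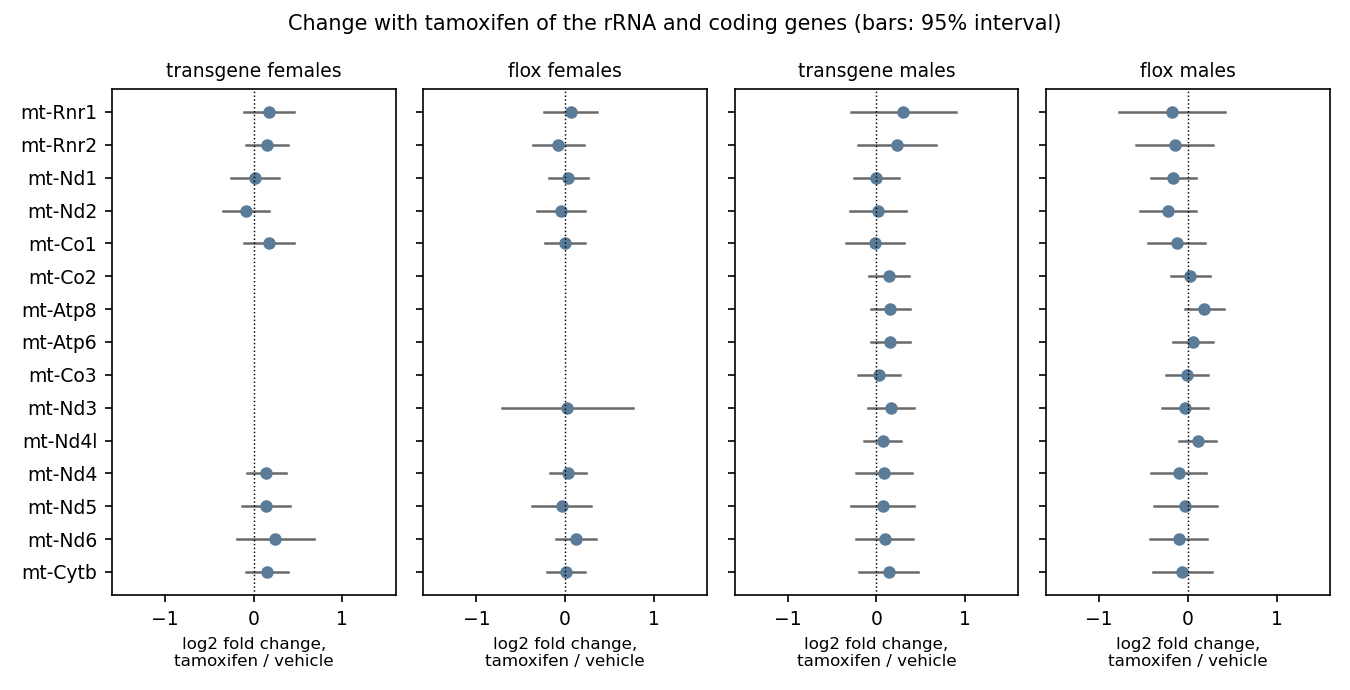
Log2 fold change of tamoxifen over vehicle (x axis) for the 2 rRNA and 13 coding genes (y axis, genome order) in the 4 strata, with 95% intervals from edgeR; genes without a point did not pass the filter on low counts. Each interval takes in 0.

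The difference between the male responses was tested as an interaction of transgene and tamoxifen. mt-Tc had the smallest adjusted p, 0.483, with a log2 difference of 0.87 ± 0.31 (SE). None of the 29 genes passed in edgeR, and 0 by limma-voom and DESeq2, against 0.0128% of all genes tested. An unadjusted p under 0.05 was reached by 2, against 8.25% of all genes tested. Averaged over the 4 strata, 0 of 31 genes passed in edgeR (0 by limma-voom and DESeq2), against 8.83% of all genes tested. An unadjusted p under 0.05 was reached by 0, against 22.3% of all genes tested. Of these 31 genes, 14 had a group with 0 counts in all its libraries, and their SE reached 747, so the average says nothing of several of them. For the 7 coding genes counted well in every table the averaged log2 fold changes ran from -0.09 for mt-Nd2 to 0.09 for mt-Nd6. mt-Co1 stood at 0.00, with a 95% interval of -0.13 to 0.13. The averaged coding share differed by 0.0417 percentage points, with p = 0.911 in an exact permutation test over 160000 assignments within strata, the rRNA share by 0.00638 (p = 0.867) and the tRNA share by 0.000139 (p = 0.869). The share averages are in percentage points, so strata with larger shares count for more. For tRNA the differences were 0.00303 in transgene males and -0.00292 in flox males. In transgene and flox females they were 0.000362 and 8.25e-05. For rRNA they were 0.0901 and -0.0912 in the males, and 0.0287 and -0.00204 in the females. Male strata of opposite sign thus largely cancelled, and the tRNA average says little of females. In bulk muscle, fewer cells of a type and less RNA per cell cannot be told apart in any of these values.

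Transgene and flox males, which share 1 table, were also compared within a treatment. After tamoxifen, 3 of 29 genes tested, all tRNA genes, were higher in transgene males and the other genes tested did not pass, in a comparison where 5.23% of all genes passed. mt-Tn (ENSMUSG00000064348) was at 15.7, 17.6 and 21.3 CPM in transgene males and at 7.59, 9.07 and 6.05 in flox males. The groups did not overlap, and mt-Tn was higher by a log2 fold change of 1.27 ± 0.27 (SE; edgeR adjusted p = 0.0220). mt-Tc (ENSMUSG00000064349), the next gene along the genome, was at 23.4, 19.4 and 19.98 CPM against 11.6, 13.4 and 9.57, again without overlap, a log2 fold change of 0.86 ± 0.22 (edgeR adjusted p = 0.0446). mt-Tl1 (ENSMUSG00000064340) was at 4.43, 4.85 and 4.38 CPM against 3.13, 2.87 and 2.59, without overlap, a log2 fold change of 0.67 ± 0.18 (edgeR adjusted p = 0.0490). Groups without overlap were common in this comparison, at 4327 of all 15628 genes tested.

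The minus strand neighbours of mt-Tn and mt-Tc were not alike. mt-Ty, the tRNA for tyrosine next to mt-Tc, had a log2 fold change of 0.76 ± 0.26 and mt-Ta, for alanine next to mt-Tn, one of 0.22 ± 0.44, with edgeR adjusted p = 0.107 and 0.822. mt-Tp and mt-Te, the most counted tRNAs, had 0.17 ± 0.15 and 0.49 ± 0.26 (edgeR adjusted p = 0.572 and 0.322). The 14 tRNA genes tested had a median log2 fold change of 0.50, the 13 coding genes one of 0.01 and all genes tested one of -0.01. Among males given tamoxifen the summed tRNA share was 0.0203%, 0.0172% and 0.0191% with the transgene and 0.0125%, 0.0165% and 0.0153% without it, so the groups did not overlap (exact permutation p = 0.10, adjusted p = 0.42).

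The 3 calls depended on single libraries and on settings. limma-voom and DESeq2 also called 3, but with library totals in place of TMM the count was 1, and with no filter on low counts it was 0. It was also 0 without transgene tamoxifen replicate 2 or 3 or without flox tamoxifen replicate 1, 2 or 3. It was 1 without transgene tamoxifen replicate 1, transgene vehicle replicate 1 or flox vehicle replicate 2. The log2 fold changes kept within 1.13 to 1.42 for mt-Tn, 0.74 to 0.99 for mt-Tc and 0.60 to 0.74 for mt-Tl1 over 18 alternatives each.

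Other RNAs moved in the same comparison. Rn7sk, a nuclear RNA without a poly(A) tail, was lower in transgene males by a log2 fold change of -2.11 ± 0.31 (edgeR adjusted p = 0.00297), at 0.541 against 2.36 CPM. The 8 slow fibre genes, all detected, summed to 152 to 2864 CPM in transgene males and to 2709 to 3447 in flox males, with a median log2 fold change of -1.14 and 0 passing the test. The 5 red blood cell and 7 adipocyte genes had medians of -0.67 and -1.03, also with 0 passing, and their sums overlapped between the groups. The 5 fibroblast genes went the other way, with sums of 463 to 512 CPM in transgene males and 291 to 390 in flox males. The part of library make-up, fibre type, fibroblasts, blood or fat in the tRNA difference was not tested.

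**Figure D4:**
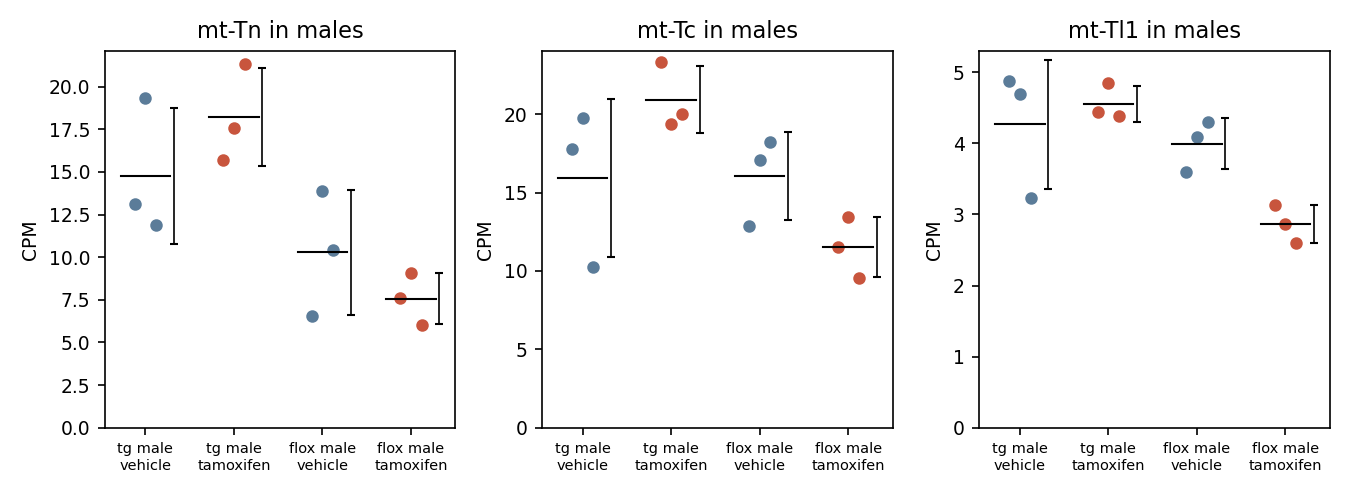
CPM (y axis) of mt-Tn, mt-Tc and mt-Tl1 in the 12 male libraries (points) by group, with means and 1 SD (n = 3); tg is the transgene. After tamoxifen the transgene libraries sat above the flox libraries for each of the 3 tRNAs (for mt-Tn at 15.7 to 21.3 against 6.05 to 9.07). Groups did not overlap for 4327 of all 15628 genes tested there. After vehicle the groups of the 3 tRNAs overlapped, but the interaction of transgene and tamoxifen did not pass for any of them.

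After vehicle both rRNAs had lower values in transgene males, without passing in edgeR. mt-Rnr1 was at 1197, 1514 and 890.4 CPM in transgene males and at 1704, 1757 and 3125 in flox males. The groups did not overlap, and mt-Rnr1 had a log2 fold change of -0.87 ± 0.27 (SE; edgeR adjusted p = 0.142). mt-Rnr2 was at 3179, 4389 and 3051 CPM against 4493, 4648 and 6526, with -0.56 ± 0.20 (edgeR adjusted p = 0.193). Of all 15628 genes tested, 3537 had groups without overlap in this comparison. In edgeR 0 of 29 genes passed, and 0 by limma-voom, against 0.947% of all genes tested. An unadjusted p under 0.05 was reached by 4, against 17.2% of all genes tested. DESeq2 called 1, mt-Rnr1, at -0.86 with adjusted p = 0.0315. The rRNA share was 0.437%, 0.575% and 0.368% in transgene and 0.661%, 0.672% and 0.960% in flox males (exact permutation p = 0.10, adjusted p = 0.42). mt-Tm reached -2.003 ± 0.49 (edgeR adjusted p = 0.0750), on at most 16 counts per male library.

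Markers of blood and fat had lower values in transgene males in the same comparison, without passing the test. The 5 red blood cell genes had a median log2 fold change of -1.04 and summed to 323 to 407 CPM in transgene males and 590.0 to 1093 in flox males. The 7 adipocyte genes had a median of -1.995 and summed to 102 to 146 and 139 to 222 CPM, with Ucp1 at 0 in the flox males. In both lists 0 genes passed the test, and all genes tested had a median of -0.02. Of 14 nuclear RNAs listed as lacking a poly(A) tail only Rn7sk and Hist1h1c were tested, at -1.36 and -0.14 (edgeR adjusted p = 0.0534 and 0.790). The part of blood, fat or library make-up in the rRNA difference was not tested. This comparison uses the 3 libraries whose labels conflict.

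The nuclear partners of these genes were described from lists of oxidative phosphorylation subunits: 36 of complex I, 4 of complex II, 9 of complex III, 13 of complex IV and 15 of complex V. All 77 were tested in each comparison, and 0 passed in any single comparison in edgeR. For tamoxifen against vehicle, an unadjusted p under 0.05 was reached by 8 in transgene and 7 in flox females, and by 2 in transgene and 5 in flox males. These are 10.4%, 9.09%, 2.6% and 6.49% of the list, against 16.8%, 8.65%, 10.1% and 17.4% of all genes tested. Between transgene and flox males it was reached by 2 after vehicle and 6 after tamoxifen, or 2.6% and 7.79%, against 17.2% and 20.8% of all genes. With tamoxifen 72 of the 77 had a positive log2 fold change in transgene females (median 0.12, all genes tested 0.01) and 73 in flox females (median 0.11, all genes 0.00). In transgene males 48 of 77 were positive (median 0.03, all genes 0.01), and in flox males 16 of 77 (median -0.08, all genes -0.01).

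In the average over strata 3 of the 77 nuclear subunits rose, or 3.9%, against 8.83% of all genes called in either direction, so the count is no result about the list. Atp5k, the small e subunit of complex V, rose by a log2 fold change of 0.25 ± 0.05 (SE; edgeR adjusted p = 0.00170), Atp5o, in its stalk, by 0.16 ± 0.04 (edgeR adjusted p = 0.0111) and Cox7c of complex IV by 0.23 ± 0.07 (edgeR adjusted p = 0.0455). Their mitochondrially encoded partners in complex V, mt-Atp6 and mt-Atp8, passed the filter on low counts in males and in neither female table, with log2 fold changes for tamoxifen of 0.16 and 0.16 in the transgene and 0.06 and 0.18 in the flox animals, none past the threshold. In the averaged fit they also passed the filter, but with groups at 0 their estimates were unusable. For Cox7c the mean over all libraries was 143 CPM with tamoxifen and 140 with vehicle, a small difference beside its fold change.

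Of 14 nuclear genes for transcription and replication of the mitochondrial DNA, Tfam rose with tamoxifen. TFAM binds and packs the mitochondrial DNA and is needed to start its transcription. In transgene males Tfam was at 46.6, 47.7 and 44.6 CPM after vehicle and at 73.9, 59.7 and 74.1 after tamoxifen, without overlap, and rose by a log2 fold change of 0.58 ± 0.11 (SE; edgeR adjusted p = 0.0291). In flox males, which lack the Cre, it was at 48.4, 43.1 and 50.6 CPM against 65.4, 75.2 and 83.7, also without overlap, and rose by 0.66 ± 0.11 (edgeR adjusted p = 0.00683). The interaction was -0.08 ± 0.16 (edgeR adjusted p = 0.929). Of all 15628 genes tested, 2154 had groups without overlap in transgene males and 4342 in flox males.

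In transgene females Tfam was at 46.4, 46.7 and 50.7 CPM after vehicle and at 60.1, 75.3 and 65.6 after tamoxifen, without overlap, with a log2 fold change of 0.48 ± 0.09 and an edgeR adjusted p of 0.0514. In flox females it was at 41.0, 42.0 and 44.2 CPM against 47.8, 46.4 and 51.5, without overlap, with 0.19 ± 0.08 (edgeR adjusted p = 0.526). Groups did not overlap for 3206 of all 14211 genes tested in transgene females and for 2108 of 14539 in flox females. The average of Tfam over the 4 strata was 0.48 ± 0.05 (edgeR adjusted p = 1.95e-06), and it passed in each of the 24 fits that left out 1 library. Averaged without the transgene males, whose vehicle labels conflict, it was 0.44 (edgeR adjusted p = 7.54e-05), a choice made after the data were seen. In flox males alone its call held in each of the 12 fits that left out 1 male library. In transgene males alone it lost its call without any of the 3 vehicle libraries, tamoxifen replicate 1 or 3, flox vehicle replicate 1 or flox tamoxifen replicate 2, with edgeR adjusted p between 0.0507 and 0.125. It also lost it with library totals in place of TMM (edgeR adjusted p = 0.0532) and in a fit on the 6 transgene males alone (0.116).

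Twnk, which encodes the helicase Twinkle of mitochondrial DNA replication, rose in the average by 0.25 ± 0.07 (edgeR adjusted p = 0.0232). It was at 27.6, 28.5 and 29.3 CPM after vehicle and 37.99, 33.3 and 44.8 after tamoxifen in transgene males, and its groups did not overlap in transgene females and flox males either. In flox females it had a log2 fold change of -0.07 ± 0.20 (SE; edgeR adjusted p = 0.953). In the average without the transgene males it did not pass, at 0.19 (edgeR adjusted p = 0.166). The other genes of the list, which include the polymerase gene Polrmt, did not pass in any comparison. Of 21 genes for processing and stability of mitochondrial RNA, 0 passed in each of the 8 comparisons in edgeR, with median log2 fold changes between -0.03 and 0.04.

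**Figure D5:**
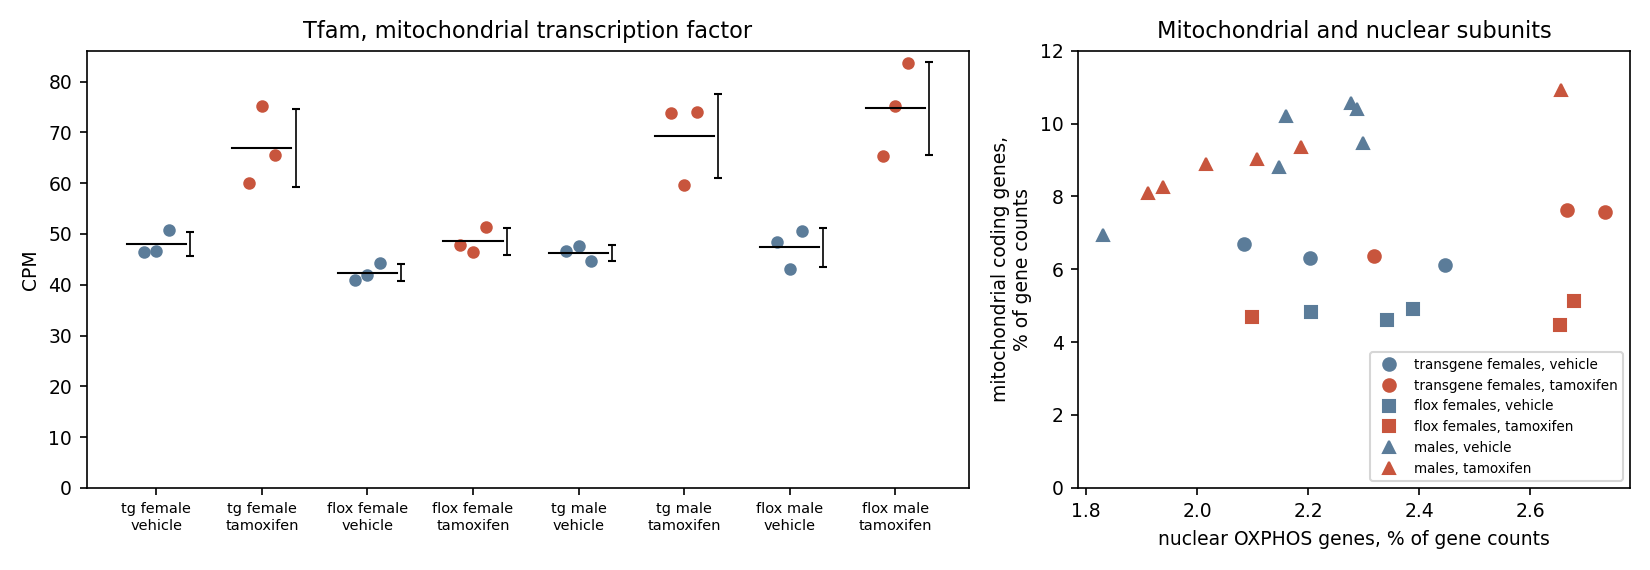
Left, CPM of Tfam in each library (points) of the 8 groups, with means and 1 SD (n = 3; tg is the transgene): tamoxifen libraries sat above vehicle libraries in each stratum, least in flox females (46.4 to 51.5 against 41.0 to 44.2). Right, share of all gene counts in the 13 mitochondrial coding genes (y axis, percent) against that in 77 nuclear subunit genes (x axis, percent), by table and treatment; coding shares were 6.93% to 10.9% in males, which overlapped with 6.11% to 7.64% in transgene females and lay above 4.46% to 5.13% in flox females.

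The coding share was also set against the share of the 77 nuclear subunits, within tables, as 1 of 6 relations computed. In the 12 male libraries Pearson's r was 0.88 (permutation p = 6.00e-05, adjusted p = 0.000360) and Spearman's rho 0.92 (permutation p = 8.00e-05, adjusted p = 0.000480). Without the 2 libraries farthest from the median nuclear share r was 0.85. Taken as deviations from group means, a look added after the data were seen, r was 0.89, and it was 0.94 within the 6 transgene males and 0.64 within the 6 flox males. Both shares have the same library total as denominator.

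In transgene females r was 0.72 and rho 0.43, and in flox females 0.15 and 0.26, over 6 libraries each (exact permutation p = 0.142 and 0.419, and 0.739 and 0.658). The adjusted p-values were 0.246 and 0.503, and 0.739 and 0.658, and r without 2 libraries was 0.79 and 0.28. Against Myh7, the myosin of slow fibres, the male coding share had r = 0.65 (permutation p = 0.0257, adjusted p = 0.0770) and rho = 0.50 (p = 0.0992, adjusted p = 0.297). Without the 2 farthest libraries r was 0.35, so the pooled r rested on them. Within transgene males it was 0.91, within flox males -0.71, and as deviations from group means over all 12 it was 0.90. The values within a genotype pool vehicle and tamoxifen. In flox males the 2 treatments did not overlap in Myh7 (674 to 798 CPM after vehicle, 850 to 1122 after tamoxifen). Nor did they overlap in coding share (9.48% to 10.6% and 8.88% to 9.36%). The -0.71 therefore takes in the difference between treatments, and the sign was not tested between genotypes. In transgene and flox females r with Myh7 was 0.68 and 0.27 and rho 0.43 and 0.49 (exact permutation p = 0.164 and 0.647 for r, 0.419 and 0.356 for rho, adjusted p = 0.246, 0.739, 0.503 and 0.503), with r = 0.80 and 0.23 without 2 libraries.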

How the data were processed

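The authors deposited 3 tables of raw counts by Ensembl gene, which they made with STAR and featureCounts on GRCm38 or mm10, also naming limma, per the submitters' processing notes, without versions. No source used here gives the library kit, the strand setting or the handling of reads that fit several places. Symbols matched 54723 of 54752 IDs.

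Counts were tested with edgeR 4.0.16 in R 4.3.3: TMM scaling, filterByExpr (minimum count 10, minimum total 15), robust quasi-likelihood F-tests, Benjamini-Hochberg adjustment over all genes and a threshold of 0.05. SE is the log2 fold change divided by the square root of F. Each female table was fitted alone, the 12 males together, and all 24 libraries for the average. Shares were compared by exact two-sided permutation tests. Alternatives used DESeq2 1.42.0, limma-voom 3.58.1, other scalings and filters, and left-out libraries. The procedure was tested on simulated data. Named were all coding and rRNA genes, the 5 leading tRNAs, genes past the threshold, and up to 3 per direction from each list. mt-Ta, mt-Td, mt-Tk, mt-Tl2, mt-Tm, mt-Tq and mt-Ty were added after their values were seen. Members and lists were chosen with earlier results of these data known.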

Additional observations from a re-analysis of the deposited data

How the results depend on the processing

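The number of mitochondrial genes past the threshold was 0 in 7 comparisons. Under other scalings, filters and tools it differed only here: with no filter on low counts 1 gene, mt-Tm, passed in transgene females (log2 fold change 0.74, edgeR adjusted p = 0.0279), and with DESeq2 1 gene, mt-Rnr1, passed in transgene against flox males after vehicle. In transgene against flox males after tamoxifen the count was 3, and it was 1 with library totals without TMM, 0 with no filter on low counts and 0 to 3 when 1 library was left out. More genes entered the adjustment without the filter; the cause of the other changes was not tested. Leaving out 1 library called 0 genes in the other comparisons.

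The averaged share differences stayed without a call but changed sign. When 1 library was left out they ran from -0.186 to 0.251 percentage points for coding genes, from -0.00809 to 0.0308 for rRNA and from -0.000415 to 0.000531 for tRNA. Without the transgene males, added after the data were seen, they were -0.0711, -0.0215 and -0.000827, with exact permutation p = 0.781, 0.649 and 0.305. Of the 18 share differences between 2 groups, 7 changed sign when 1 library was left out, among them the coding share for tamoxifen in transgene males and in flox females, and between the male genotypes after tamoxifen. Under another denominator, without the most counted gene of its class or without 1 library, each of the 18 shifted by less than the larger of its groups' SDs, except the rRNA share in transgene against flox males after vehicle, which was -0.109 without mt-Rnr2, as fewer genes were summed.

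In flox females the titles number the replicates, but same-numbered libraries deviated from their group means with r = -0.20, -0.03 and -0.10, and no library correlated best with its own number. With the replicate block 0 of the mitochondrial genes and 15 of 14981 genes passed in edgeR, against 19 of 14539 without it, and the coding, rRNA and tRNA shares differed by -0.0298, -0.00204 and 8.25e-05 percentage points (exact permutation p = 1, 0.75 and 0.75). Low counts kept 6 coding genes in transgene females, 5 in flox females and most tRNAs in both from being tested.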
